A study of Mus musculus with 8 samples.

Results

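Htra1, Htra2, Htra3 and Aebp1 were followed through the cells of mouse dorsal skin. They are 4 of the 31053 genes in the count files, and each matched a single Ensembl identifier. They were picked by gene symbol, with earlier results of these data known. The skin came from female BALB/c mice aged 14 to 16 weeks. It had been injected subcutaneously with PBMCsec, the factors released by irradiated peripheral blood mononuclear cells (4 libraries), or with vehicle (4 libraries), and 4 mm biopsies were dissociated for 10x Genomics 3′ single-cell sequencing. Each library is labelled with its treatment and a number (1 to 4), but not with a wound, a time point or the solution used as vehicle. Libraries were therefore compared by treatment alone. The paper describes its mouse single-cell samples as scars that followed full-thickness wounds. Whether these libraries came from such scars or from unwounded skin is not in the labels. The labels do not say that each library came from a separate mouse, and the p-values measure only the spread between these libraries, which may be technical.

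HtrA proteins are trimeric serine proteases with a PDZ domain that work without ATP. HTRA1 and HTRA3 are secreted, carry an insulin-like growth factor binding domain at the N terminus, cleave matrix proteins such as fibronectin and decorin, and can dampen TGFβ signaling. HTRA2 (Omi) sits between the mitochondrial membranes, where it takes part in protein quality control, and binds inhibitors of apoptosis when it is released into the cytosol. AEBP1 (ACLP) has a discoidin domain and a carboxypeptidase-like domain that lacks enzyme activity. It is secreted by fibroblasts (FBs), binds collagen, and its loss in humans causes a form of Ehlers-Danlos syndrome with fragile skin.

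The kinship of the 3 proteases is seen in the coding bases around the catalytic serine, which are given here because they show how close the proteases are and have no counterpart in Aebp1. The signature of HtrA proteases around this serine was found at 1 place in each of the coding sequences of Htra1 (480 codons), Htra2 (458 codons) and Htra3 (459 codons), and at 0 places in that of Aebp1 (1128 codons). Each line gives 45 coding bases from the GENCODE M21 transcripts (GRCm38), 5′ to 3′ on the strand of the gene, with the codon of the catalytic serine in capitals.
Htra1: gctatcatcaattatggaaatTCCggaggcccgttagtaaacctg
Htra2: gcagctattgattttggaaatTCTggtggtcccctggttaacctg
Htra3: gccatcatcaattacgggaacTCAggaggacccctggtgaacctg

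The capitals mark codon 328 of Htra1, codon 306 of Htra2 and codon 311 of Htra3. Htra1 and Htra3 shared 35 of the 45 bases (77.8%) and encoded the same residue at all 15 codons. Htra2 shared 31 bases (68.9%) with Htra1 and as many with Htra3, and encoded the same residue at 12 of the 15 codons in either case. In all 3 genes an intron splits the stretch after its first 12 bases. For Htra1 on the plus strand it lies in exon 4 (chr7:130979484-130979495) and exon 5 (chr7:130979952-130979984). For Htra2 on the minus strand the exons are 3 (chr6:83053329-83053340) and 4 (chr6:83053038-83053070). For Htra3, also on the minus strand, they are exon 4 (chr5:35666050-35666061) and exon 5 (chr5:35665414-35665446).

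The whole genes lie at chr7:130936111-130985660 (Htra1, plus strand), chr6:83051266-83055273 (Htra2, minus strand), chr5:35652023-35679782 (Htra3, minus strand) and chr11:5861947-5872088 (Aebp1, plus strand) of GRCm38. Htra2 overlaps Loxl3 and Aup1, and Htra1 lies within the annotated span of Fgfr2, each on the opposite strand. Whether strand was used in counting is not given in the sources used here. Any part of reads from these partners in the counts of Htra1 and Htra2 was not tested.

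The libraries held 14753926 to 37880651 unique molecular identifiers (UMIs, the count of distinct captured transcripts). Of 26231 barcodes, 6150 passed the study's filters on genes, UMIs and mitochondrial counts, with 151 to 1659 cells and a median of 6156 to 9521 UMIs per cell in a library. Pairs of libraries shared at most 2 cell barcodes (4 in 28 pairs). The cells formed 34 clusters, which were classed by marker genes. The HtrA genes and the genes of the lists read below were left out of the features used for clustering. Other genes named here could be used, among them Aebp1, Pdgfra and most genes that lead clusters. They gave 1606 FBs, 1714 hair follicle cells (HFs), 917 keratinocytes (KCs), 748 T and B cells (TCs), and 518 dendritic cells (DCs) and macrophages. Smaller classes were 118 neutrophils, 83 endothelial cells (ECs), 64 melanocytes, 38 smooth muscle cells and pericytes (SMCs/PCs) and 27 mast cells and basophils, and 317 cells stayed unnamed. FBs were named by markers such as Col1a2, found in 98.3% of FBs and 13.5% of the other cells, and Pdgfra, in 87.5% and 1.06%; these chose the name and do not test it. Of all barcodes, 16900 were over the 5% mitochondrial limit, and 10.2% (vehicle library 1) to 32.9% (PBMCsec library 3) of a library's barcodes were kept. Over all barcodes there were 44032 UMIs of Htra1, 4575 of Htra2, 33450 of Htra3 and 55107 of Aebp1. In all cells kept there were 15621 UMIs of Htra1, 1167 of Htra2, 9993 of Htra3 and 19738 of Aebp1. Htra4, the remaining member of the family, had 40 UMIs and was not described further.

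Htra3 and Aebp1 were fibroblast genes in this skin. Htra1 was shared by FBs, the few SMCs/PCs and part of the epithelium. Htra2 was found at a low level in almost every cell type. FBs made up 26.1% of the cells. Of the UMIs in the cells kept, they held 99.0% for Htra3, 94.7% for Aebp1, 73.9% for Htra1 and 47.7% for Htra2. Levels are given as CPM, the UMIs of the gene per 1000000 UMIs of the class in a library. Differences between classes are on the scale log2(CPM + 10), which understates the change where 1 class is near 0. Since the classes come from clustering the same cells, class differences are described and not tested.

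Htra3 stood at 927 ± 335 CPM in FBs (SD, n = 8 libraries; lowest 618, highest 1494). In KCs it was 1.48 ± 1.61 CPM, in HFs 1.62 ± 2.40, in TCs 3.10 ± 3.00, and in DCs and macrophages 5.02 ± 3.51. The lowest FB library thus lay far above the highest library of any of these classes, which was 9.29 CPM in DCs and macrophages.  At least 1 UMI of Htra3 was found in 89.2% of FBs and in 1.203% of TCs, a class that should lack the gene, at a median depth of 8564 and 3312 UMIs. When every cell was thinned to 1000 UMIs the shares were 46.5% and 0.331%, while KCs had 0.235% and HFs 0.142%, below the share in TCs and read as background. Outside FBs the melanocyte cluster had the highest level, with 112 ± 49.8 CPM (n = 4 libraries with 10 or more cells) from 21 UMIs in 64 cells.

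Aebp1 reached 1233 ± 314 CPM in FBs (n = 8; lowest 707, highest 1702). KCs had 3.16 ± 2.97 CPM, TCs 5.13 ± 5.64, and DCs and macrophages 2.52 ± 3.57. These 3 classes did not differ beyond their spread. HFs had more, with 28.8 ± 21.4 CPM and a range of 10.1 to 75.5. The share of thinned cells with an Aebp1 UMI was 57.8% in FBs, 2.58% in HFs, 0.474% in TCs and 0.380% in KCs.

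Aebp1 was also found in some smaller populations. The EC clusters had few cells per library, so their values sum all libraries. The one led by Ccl21a, Mmrn1, Lyve1 and Prox1, genes of lymphatic vessels, had 230 CPM with UMIs in 36 of 49 cells. The EC cluster led by Fabp4, Plvap and Cd36, genes of blood vessels, had 23.2 CPM with UMIs in 2 of 34 cells. Melanocytes, which also held UMIs of Htra3 and Htra1, had 167 ± 114 CPM (n = 4) at a median of 2455 UMIs per cell. No background share was set for them. The unnamed cluster led by Tagln, Dio3 and Acta2 had 196 ± 53.5 CPM (n = 5) with UMIs in 68.7% of its 227 cells. It also carried 4 HF markers (Lgr5, Lhx2, Krt15 and Hoxc13), but 2 SMC/PC markers among its leading genes left it unnamed. It held 414 UMIs of Aebp1, beside 406 in the whole HF class, whose levels leave it out. Among the clusters named HFs the highest was the one led by Id4, Scrg1 and Lgr5, with 59.0 ± 26.9 CPM (n = 5).

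Htra1 was at 752 ± 220 CPM in FBs (n = 8; lowest 378, highest 1012). In KCs it was 170 ± 31.0 CPM, and the 8 libraries read 143, 136, 196 and 180 after PBMCsec and 151, 222, 190 and 146 after vehicle. FBs exceeded KCs by 2.04 ± 0.53 on the log2 scale. TCs had 3.50 ± 4.27 CPM, and DCs and macrophages 4.36 ± 2.54. UMIs of Htra1 were found in 66.5% of KCs and 1.203% of TCs, and after thinning in 15.4% and 0.425%, so the KC signal was not at the level of background. HFs ran from 32.6 to 209 CPM between libraries (mean 98.6 ± 72.0). Their highest values came from vehicle library 3 (209 CPM, 621 cells) and PBMCsec library 1 (206 CPM, 151 cells). Htra1 also differed between HF clusters, with all libraries summed. The clusters led by Krt25, Id4, Sostdc1 and Ptn had 218, 216, 136 and 122 CPM. Those led by Krt6a, Pthlh and Cst6 had 9.77, 9.76 and 5.65 CPM. The Krt25 and Id4 clusters ranged from 0 to 326 and from 36.0 to 591 CPM between libraries with 10 or more cells.

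Among the remaining classes SMCs/PCs, the contractile cells of vessel walls, had 502 CPM of Htra1 with all libraries summed. UMIs were found in 28 of 38 cells, and only 1 library had 10 or more of them, at 315 CPM. The melanocyte value of 173 ± 293 CPM (n = 4) ran from 0 to 611 between libraries and was not settled at this depth. The lymphatic EC cluster was listed at 0, and 0 of 49 cells allows a share of cells with a UMI of up to 6.12%, counting error only.

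Htra2, the mitochondrial member, followed another order. FBs had 41.8 ± 13.2 CPM and DCs and macrophages 34.1 ± 11.1 (n = 8 each), and FBs were the higher of the pair in 3 of 8 libraries, so these classes did not differ beyond their spread. TCs had 17.6 ± 8.26 CPM, HFs 12.2 ± 5.83 and KCs 9.37 ± 6.32, and these neighbours overlapped. The single cluster with the highest level was the macrophage cluster led by C1qb, C1qa and C1qc, with 51.7 ± 13.02 CPM (n = 6). The lowest was the follicle cluster led by Cst6 and Krt79, with 3.15 ± 3.05 CPM (n = 5). UMIs of Htra2 were found in 27.7% of FBs and, after thinning, in 3.83%. No class lacked the gene, so no background share could be set for it.

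FBs were higher than KCs, HFs and TCs in 8 of 8 libraries for all 4 members, and higher than DCs and macrophages for 3 of 4. Of the 9315 genes compared, 27.8% were higher in FBs than in KCs in 8 of 8 libraries, 19.2% higher than in HFs, 24% higher than in TCs and 25.8% higher than in DCs and macrophages. Such an order was therefore common. The sizes differed, since FBs exceeded KCs by 6.29 ± 0.64 for Htra3 and 6.55 ± 0.44 for Aebp1 on the log2 scale, but by 1.46 ± 0.84 for Htra2.

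**Figure D1:**
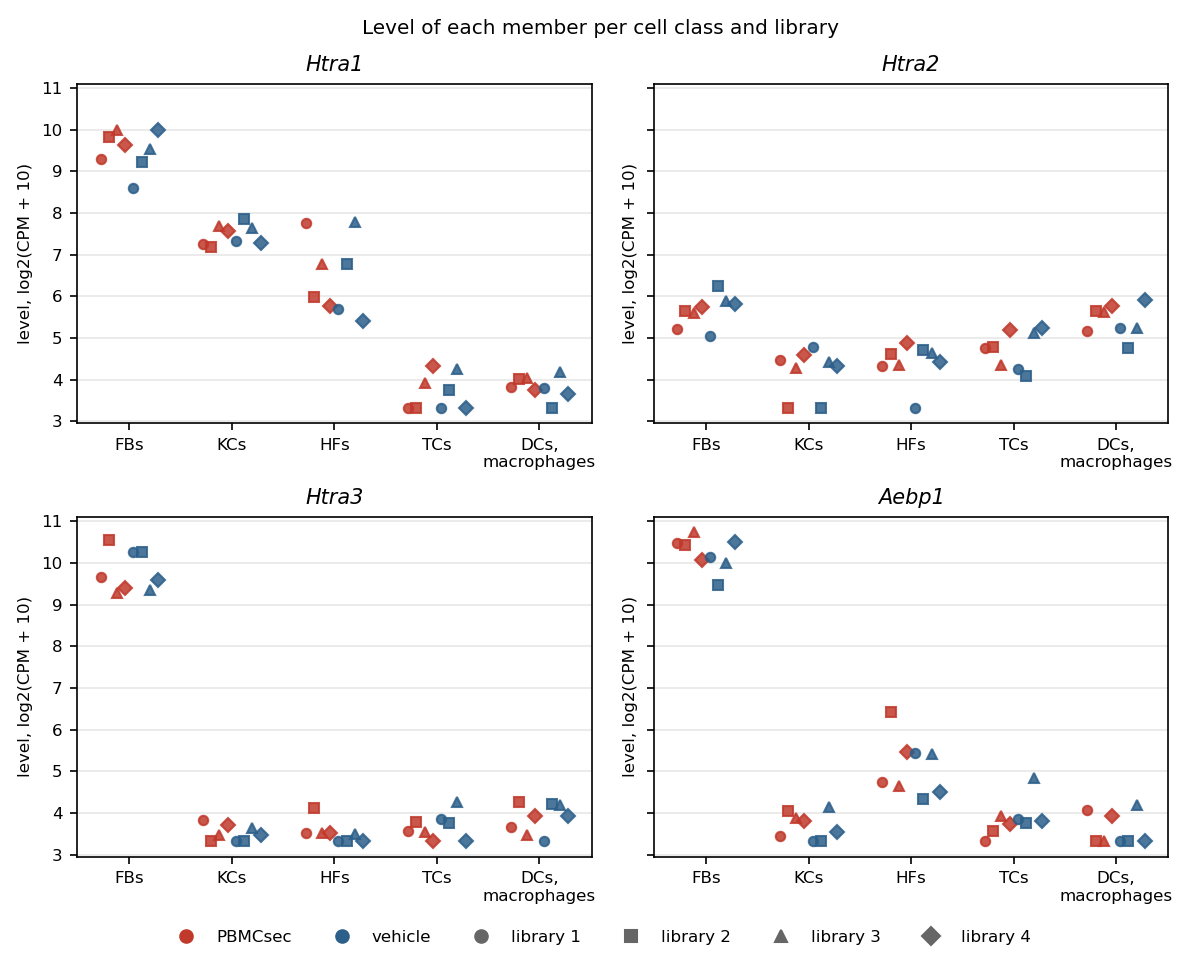
Level of each gene in 5 cell classes, as log2(CPM + 10) on the y axis, with 1 point for each of the 8 libraries (red PBMCsec, blue vehicle, shapes for the library number). Htra3 and Aebp1 are high in FBs and near the floor in KCs and immune cells, Htra1 is intermediate in KCs and scattered in HFs, and Htra2 is low throughout.

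**Figure D2:**
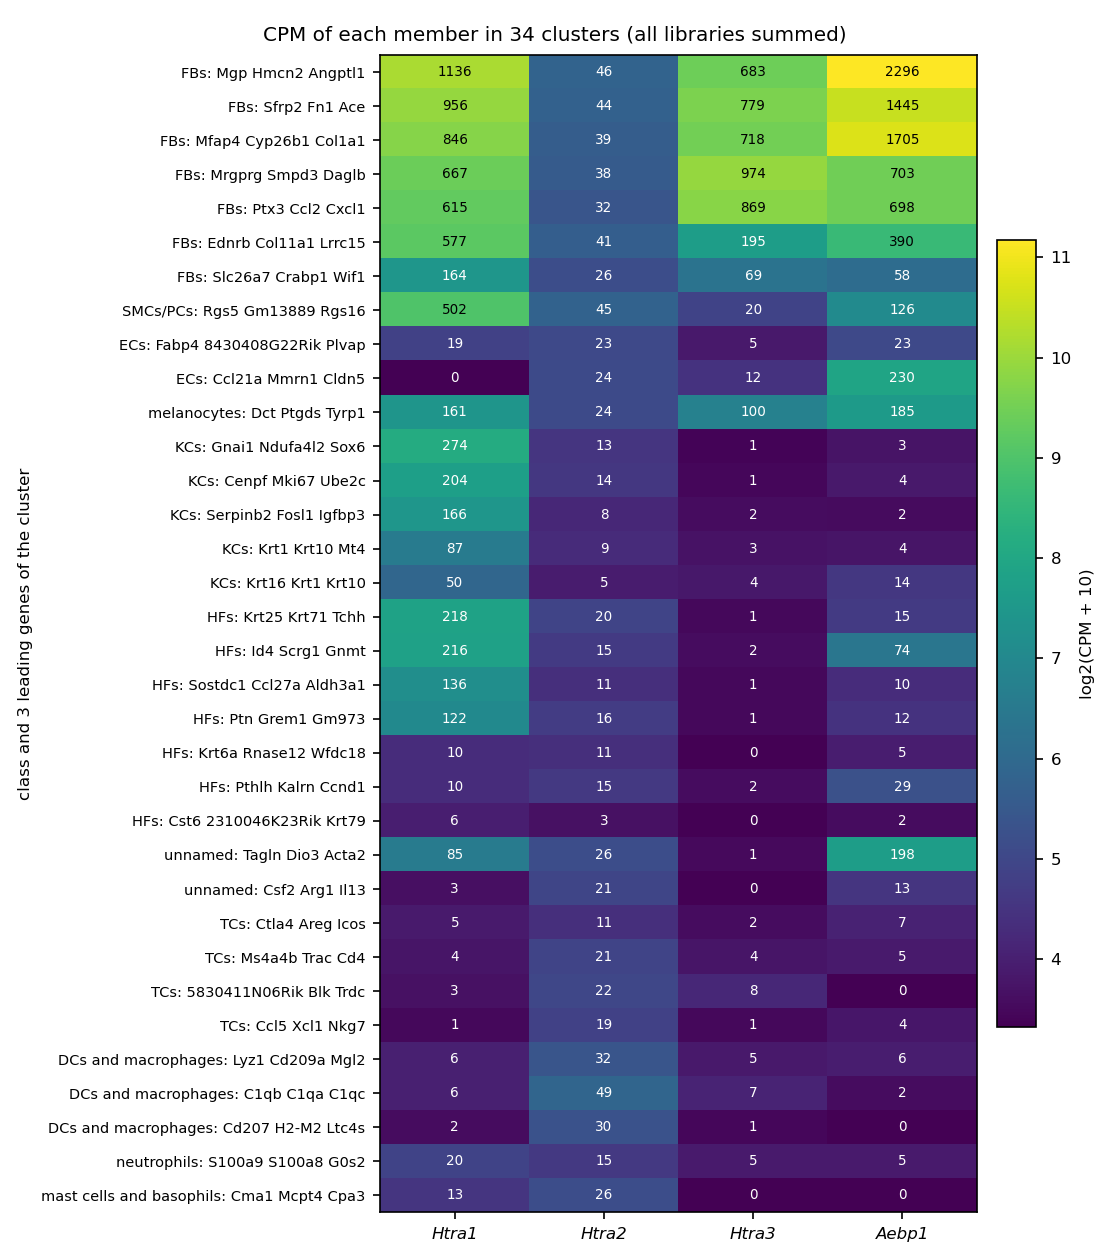
CPM of each gene in the 34 clusters, all libraries summed, with the number written in each cell and the color giving log2(CPM + 10). Rows are clusters with their class and 3 leading genes, and the 7 FB clusters at the top run from 1136 to 164 CPM for Htra1 and from 2296 to 58.0 for Aebp1.

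FBs were not uniform. They fell into 7 clusters, named here by a leading gene. Clusters of the same cells are described without a test, and only libraries with at least 10 cells of a cluster enter its mean. The Mgp cluster (248 cells; also Angptl1 and Apod) had the highest Aebp1, with 2219 ± 444 CPM (n = 6). Its libraries read 2488, 1508, 2568 and 2613 CPM after PBMCsec and 2273 and 1863 CPM in vehicle libraries 3 and 4. The Mfap4 cluster (317 cells; Cyp26b1, Cpz) had 1518 ± 541 CPM and the Sfrp2 cluster (438 cells; Ace, C4b) 1449 ± 310 CPM (n = 6 each), and these neighbours did not differ beyond their spread. The mean of the Mfap4 cluster was raised by PBMCsec library 3 at 2586 CPM, since the other 5 libraries lay between 1102 and 1466. The Pi16 cluster (251 cells; Smpd3, Anxa3) had 723 ± 301 CPM and the Ptx3 cluster (159 cells; Ccl2, Il6) 550 ± 328 CPM (n = 5 each). Over all its cells the Ptx3 cluster had 697 CPM, and 363 CPM without PBMCsec library 3, which held 72 of its cells. Aebp1 in the Mgp cluster exceeded that in the Pi16 cluster in 5 of 5 libraries, by 1638 ± 559 CPM.

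Htra3 was ordered differently among the same cells. It was highest in the Ptx3 cluster, at 996 ± 236 CPM, and in the Pi16 cluster, at 928 ± 189 CPM (n = 5 each), and these 2 did not differ beyond their spread. The Sfrp2 cluster had 859 ± 295 CPM, the Mfap4 cluster 832 ± 309 and the Mgp cluster 748 ± 452 (n = 6 each). Within a library the Pi16 cluster was above the Mgp cluster in 5 of 5, by 353 ± 75.5 CPM, the opposite of the order for Aebp1. The wide spread in the Mgp cluster came from PBMCsec library 2 at 1615 CPM. This library was also the highest in the Sfrp2 (1442 CPM) and Mfap4 (1432 CPM) clusters.

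Htra1 went with Aebp1 rather than with Htra3 across these 5 clusters. The Mgp cluster had 1134 ± 352 CPM, the Sfrp2 cluster 920 ± 228, and the Mfap4 cluster 830 ± 120 (n = 6 each). The Pi16 cluster had 689 ± 224 CPM and the Ptx3 cluster 603 ± 251 (n = 5 each). The Sfrp2 cluster was above the Pi16 cluster in 5 of 5 libraries, by 218 ± 88.8 CPM, and above the Ptx3 cluster in 5 of 5, by 304 ± 59.0 CPM. Htra2 varied little, from 32.2 ± 22.0 to 46.8 ± 14.3 CPM over the 5 clusters, all within the spread between libraries.

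The remaining FB clusters were low in Htra3, and the Crabp1 cluster was also low in Aebp1. The Ednrb cluster (118 cells) was led by Ednrb, Col11a1 and Lrrc15 with the contractile genes Mylk and Actg2. It had 203 ± 48.6 CPM of Htra3 and 427 ± 217 CPM of Aebp1 (n = 5 each). Its Aebp1 was below that of the Ptx3 cluster in 2 of 5 libraries and above it in 3. For Aebp1 this pair did not differ beyond its spread. Its Htra1 was 270 to 525 CPM in 4 libraries and 2413 CPM in PBMCsec library 1, which had 10 cells of the cluster. The Crabp1 cluster (75 cells), led by Slc26a7, Crabp1 and Wif1, genes seen in the dermal papilla, had the least, with 169 ± 93.5 CPM of Htra1, 59.8 ± 32.1 of Htra3 and 63.0 ± 65.8 of Aebp1 (n = 3 each). Htra2 in these clusters was 42.4 ± 20.6 (n = 5) and 29.3 ± 15.3 CPM (n = 3), close to that of the other FBs.

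Most single FBs carried UMIs of all 3 secreted members. UMIs of Htra1, Htra3 and Aebp1 were all found in 1290 of 1606 FBs (80.3%), and 43 FBs (2.68%) had none of them. Each gene by itself was found in 90.9%, 89.2% and 89.5% of FBs. Whether they occurred together beyond these shares was not tested.

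**Figure D3:**
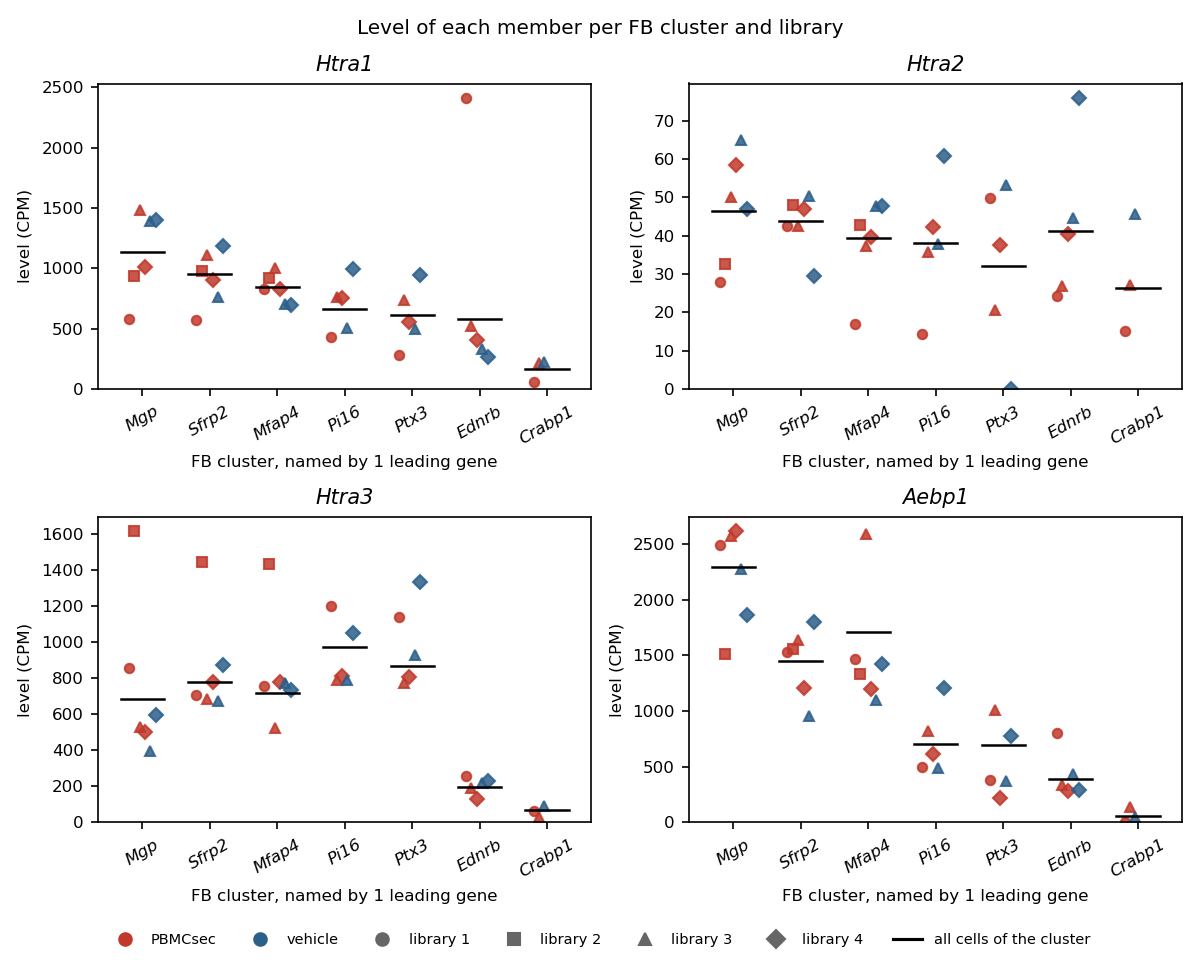
CPM of each gene in the 7 FB clusters, with 1 point for each library with at least 10 cells of the cluster and a black line for all cells of the cluster. Aebp1 and Htra1 are highest in the Mgp cluster, Htra3 in the Pi16 and Ptx3 clusters, and the Crabp1 cluster is lowest for all 3. The lone Htra1 point at 2413 CPM is PBMCsec library 1 in the Ednrb cluster.

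Htra1 also differed among the KC clusters. The cluster with the basal keratin Krt14 among its leading genes had 257 ± 47.3 CPM (n = 6), and the cluster of dividing cells with Mki67 and Top2a had 197 ± 58.5 (n = 5). The Serpinb2 cluster, with the stress genes Fosl1 and Krt16, had 164 ± 20.6 CPM (n = 6). The clusters of differentiating cells were lower, with 89.6 ± 20.1 CPM (n = 5) in the one led by Krt1 and Krt10 and 57.1 ± 27.8 (n = 3) in the one led by Krt16, Krt1 and Krt10. Within a library the Krt14 cluster was above the Krt1 cluster in 5 of 5, by 172 ± 53.5 CPM. Htra2 in the KC clusters was at most 14.4 CPM when all libraries were summed.

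**Figure D4:**
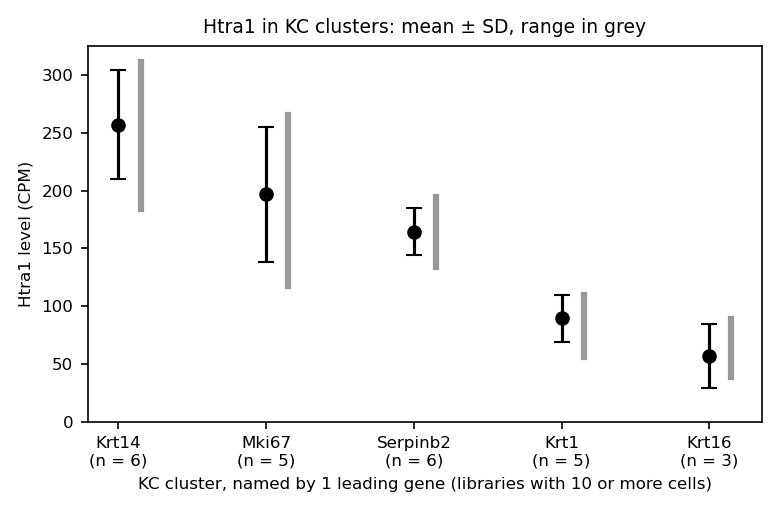
Htra1 level in CPM in 5 KC clusters, as mean ± SD (points and bars) and range (grey) over the libraries with at least 10 cells of the cluster. The level goes from 257 CPM in the basal Krt14 cluster to 57.1 CPM in the Krt16 cluster.

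The genes most like each member over the 34 clusters were named by Pearson's correlation of log2(CPM + 10) among 9314 genes. This is a description over clusters that share libraries and depth. Aebp1 and genes outside the lists read below could also enter the clustering. For Htra3 these were Lrrc17 (r = 0.986), the elastin cross-linking enzyme Loxl1 (0.982), Scara5 (0.979), the metalloprotease Mmp23 (0.975) and dermatopontin Dpt (0.975). For Aebp1 they were follistatin-like Fstl1 (0.953), the collagen chaperone Fkbp14 (0.939), the elastic fiber protein Efemp2 (0.937), the collagen chain Col5a2 (0.934) and Sspn (0.929). Htra1 had lower values, with Epb41l3 (0.909), thrombospondin Thbs2 (0.887), Gpx8 (0.882), Adamtsl5 (0.88) and periostin Postn (0.873). The genes most like Htra2 were the lysosomal enzymes Hexa (0.866) and Gusb (0.854), then Cmtm3 (0.851), integrin-linked kinase Ilk (0.846) and Ccdc88a (0.843). Among the members themselves, Htra3 and Aebp1 were the closest pair (0.893) and Htra1 and Htra2 the least close (0.364).

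Because Htra1, Htra3 and Aebp1 shared high levels in FBs, the 150 bases before their starts are given, from RefSeq on GRCm38.p6. Each is written 5′ to 3′ on the strand of the gene and ends before the more upstream of the RefSeq and GENCODE starts. Capitals mark any match, on either strand, to 4 motifs. TATAAA is the core of the TATA box. The motif CCAAT is bound by NF-Y factors and GGGCGG by Sp factors. The core site of AP-1 factors was searched as TGANTCA. The matches did not overlap.
Htra1 promoter: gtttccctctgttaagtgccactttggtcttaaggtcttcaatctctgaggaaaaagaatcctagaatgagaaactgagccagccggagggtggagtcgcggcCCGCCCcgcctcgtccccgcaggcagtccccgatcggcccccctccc
Htra3 promoter: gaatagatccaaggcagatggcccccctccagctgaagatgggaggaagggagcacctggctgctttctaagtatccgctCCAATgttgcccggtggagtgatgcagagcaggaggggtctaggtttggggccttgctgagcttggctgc
Aebp1 promoter: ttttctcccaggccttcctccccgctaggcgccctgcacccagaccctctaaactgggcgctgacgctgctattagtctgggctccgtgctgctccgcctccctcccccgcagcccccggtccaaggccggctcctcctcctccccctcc

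The windows lie at chr7:130935961-130936110 (plus strand), chr5:35679783-35679932 (minus strand) and chr11:5861716-5861865 (plus strand). Htra1 held GGGCGG on the opposite strand and Htra3 held CCAAT, while none of the 4 motifs was found in the Aebp1 window. GGGCGG occurs in 28.6% and CCAAT in 24.5% of 32851 promoter windows of this length, TATAAA in 7.57% and TGANTCA in 4.24%. Those windows all end before the RefSeq start. The windows of Htra1 and Htra3 end before their GENCODE starts, which lie upstream of the RefSeq starts (130936111 against 130936203, and 35679782 against 35679780). No motif was shared by the 3 windows. Their GC content was 60%, 58.7% and 69.3%, beside a median of 54% over all windows.

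The comparison of PBMCsec with vehicle asked whether the injection was followed by a different level of these genes in each cell class. In FBs none of the 4 passed the test, and neither did any other gene. The Htra1 level in FBs was 624, 897, 1012 and 779 CPM in PBMCsec libraries 1 to 4 and 378, 591, 729 and 1008 CPM in vehicle libraries 1 to 4. The groups overlapped, since vehicle library 4 nearly equalled the highest PBMCsec library. The log2 difference of PBMCsec from vehicle was 0.34 ± 0.29 (SE, n = 4 against 4; 95% interval −0.29 to 0.97; edgeR quasi-likelihood test, Benjamini-Hochberg adjusted p = 1).

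Aebp1 read 1424, 1369, 1702 and 1067 CPM after PBMCsec and 1130, 707, 1013 and 1456 CPM after vehicle. Here too the groups overlapped, by vehicle library 4 and PBMCsec library 4. The log2 difference was 0.43 ± 0.24 (SE; 95% interval −0.09 to 0.95; edgeR adjusted p = 1). Without vehicle library 4 the log2 difference was 0.62 for Htra1 and 0.64 for Aebp1, which were under the unadjusted threshold of 0.05 but each had an edgeR adjusted p of 1. Without vehicle library 1, with 31 FBs, the difference of Htra1 was 0.14.

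Htra3 read 796, 1494, 618 and 662 CPM after PBMCsec and 1226, 1212, 640 and 765 CPM after vehicle. The values of the groups were interleaved. The log2 difference was −0.04 ± 0.32 (95% interval −0.74 to 0.66; edgeR adjusted p = 1), and it took either sign as single libraries were left out (−0.39 to 0.13). The libraries numbered 1 and 2 lay above those numbered 3 and 4 in both groups, as they did for 3.51% of 9315 genes, while 5.73% lay below. What the number stands for is not in the labels, and this split was chosen after the values were seen.

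Htra2 was counted with 6 to 181 UMIs per library in FBs and read 27.3, 40.1, 38.3 and 44.1 CPM after PBMCsec and 23.1, 65.6, 49.4 and 46.5 CPM after vehicle. Vehicle held both the lowest and the highest library. The log2 difference was −0.24 ± 0.27 (95% interval −0.84 to 0.35; edgeR adjusted p = 1).

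None of the 4 members was among the 0 genes of 9577 that edgeR called in FBs in either direction (0%). At an unadjusted p under 0.05, 94 genes were higher and 94 lower (0.982% each), and DESeq2 and limma-voom also called 0. Likewise, every PBMCsec library lay above every vehicle library for 0.204% of genes and below for 1.71%, and for none of the members.

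The share of FBs with a UMI gave the same picture. For Aebp1 it was 89.0% ± 4.92 after PBMCsec and 80.9% ± 14.9 after vehicle (SD, n = 4 each; exact permutation test, two-sided, p = 0.4, adjusted over the 4 members 0.657). For Htra1 it was 91.0% ± 3.35 and 87.4% ± 4.59 (exact p = 0.286), for Htra3 88.8% ± 5.03 and 85.6% ± 10.3 (exact p = 0.657), and for Htra2 27.6% ± 5.16 and 25.8% ± 4.55 (exact p = 0.571). The smallest p that 4 against 4 libraries allow is 0.0286.

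Vehicle libraries 1 and 2 held 31 and 27 FBs, against 164 to 548 in PBMCsec libraries 1, 3 and 4, 70 in PBMCsec library 2, and 395 and 175 in vehicle libraries 3 and 4. Median UMIs per FB were 4987 in vehicle library 2 and 7415 to 10314.5 in the others. The Mgp cluster, rich in Aebp1 and Htra1, made up 10.98% to 32.9% of FBs after PBMCsec and 7.41% to 19.4% after vehicle. For the Crabp1 cluster, lowest in Htra1, Htra3 and Aebp1, the shares were 1.43% to 12.2% and 2.86% to 22.2%, highest in vehicle library 2. The Pi16 cluster made up 10% to 19.5% and 13.4% to 29.0%, highest in vehicle library 1. The summed level of 10 KC markers in FBs was 124 to 340 CPM after PBMCsec and 185 to 403 after vehicle, with 7 to 10 of them detected in each library. For 10 SMC/PC markers it was 51.4 to 771 CPM after PBMCsec (6 to 9 detected) and 30.3 to 1051 after vehicle (3 to 8 detected), highest in vehicle library 4 and PBMCsec library 4. Markers of ECs, TCs, and DCs and macrophages summed to at most 50.1 CPM in any library. The 4 red blood cell markers summed to 3470 CPM in PBMCsec library 4 and to at most 42.9 in the others. The part of these values in the differences was not tested.

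**Figure D5:**
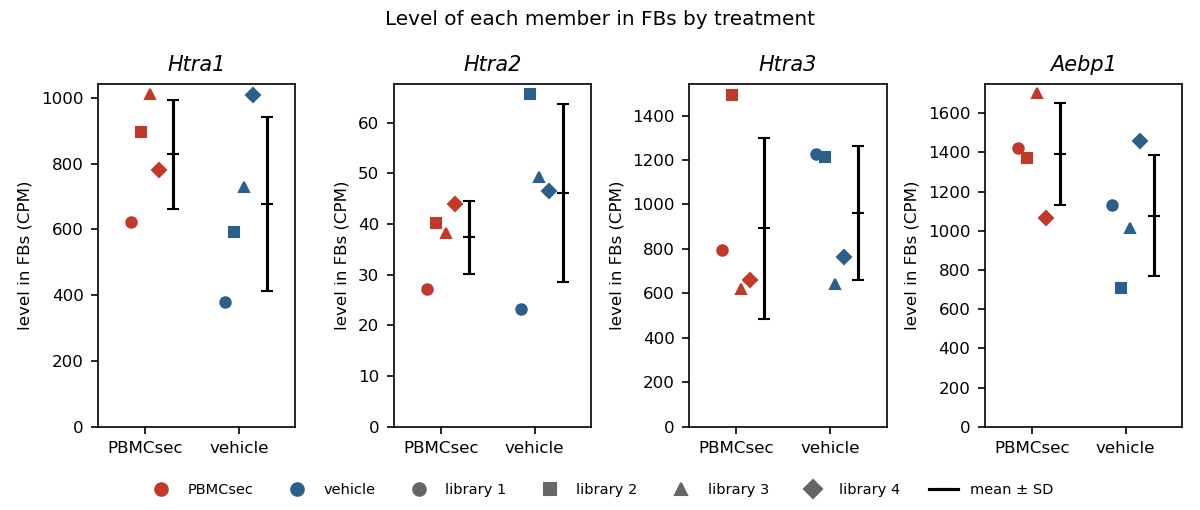
Level of each gene in FBs in CPM, with 1 point per library (red PBMCsec, blue vehicle, shapes for the library number) and mean ± SD in black. The groups overlap for all 4 genes. For Htra3 the libraries numbered 1 and 2, at 796 CPM or more, lie above those numbered 3 and 4, at 765 CPM or less, in both groups.

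Outside FBs the members could be tested only where they had enough counts, and none passed. Some libraries held few cells: vehicle library 1 had 10 KCs and 14 HFs, PBMCsec library 2 had 17 KCs, and vehicle library 2 had 15 DCs and macrophages. In KCs the log2 difference was −0.09 ± 0.24 for Htra1 and 0.18 ± 0.49 for Htra2 (edgeR adjusted p = 1 for each). The mean CPM of Htra2 in KCs went the other way, at 8.90 ± 6.20 after PBMCsec and 9.84 ± 7.36 after vehicle (SD), from 0 to 29 UMIs per library. In HFs the log2 difference was 0.11 ± 0.57 for Htra1, 0.16 ± 0.38 for Htra2 and 0.65 ± 0.54 for Aebp1 (edgeR adjusted p = 1 for each). The Aebp1 value was 0.17 without PBMCsec library 2 and 1.25 without vehicle library 3. In DCs and macrophages Htra2 gave 0.17 ± 0.34 (edgeR adjusted p = 0.9997), and 0.57 without vehicle library 4 or 0.064 without vehicle library 3. In TCs no member had enough counts. Without a block for the library number, edgeR called 0 genes in each of these classes (0%). In TCs equal library numbers were taken to pair the libraries. With the number as a block, edgeR called 7 genes higher and 0 lower there. At an unadjusted p under 0.05 the edgeR fit without a block had 51 higher and 28 lower genes in KCs (0.671% and 0.368%). It had 239 and 83 in HFs (2.4% and 0.832%), and 147 and 114 in DCs and macrophages (2.63% and 2.04%). In TCs, also without the block, it had 78 and 69 (1.75% and 1.55%). No member was among these genes. DESeq2 called 3 higher and 1 lower gene in KCs, 7 higher in DCs and macrophages and 3 higher in TCs, none of them a member. The difference between the treatment effect in FBs and in KCs was 0.45 for Htra1 on the log2 scale (exact permutation test, two-sided, p = 0.229, adjusted over both genes 0.457) and −0.14 for Htra2 (exact p = 0.857).

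Genes around the members were read from 3 lists. Of 25 matrix proteins, growth factors and receptors named as substrates or partners of HTRA1 and HTRA3, 21 were tested in FBs. PBMCsec libraries were higher for 13 and lower for 8 by their estimates, 0 passed the edgeR test, and the median log2 difference was 0.21, beside −0.01 over all 9577 genes. The ends of the list were the chaperone clusterin Clu (1.23 ± 0.58) and fibronectin Fn1 (−0.77 ± 0.35). Fn1 stood at 4349 ± 1818 CPM after PBMCsec and 7775 ± 2468 after vehicle (n = 4 each; under the unadjusted threshold of 0.05, edgeR adjusted p = 1).

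Of 23 mitochondrial proteases, chaperones and genes of the apoptosis inhibitor pathway of HTRA2, 22 were tested, with 11 estimates higher, 11 lower, 0 called and a median of 0.00. The mitochondrial chaperones Hspd1 (0.65 ± 0.31) and Hspe1 (0.56 ± 0.24) had the largest positive values, and the initiator caspase Casp9 the lowest (−0.74 ± 0.33). Hspe1 and Casp9 were under the unadjusted threshold of 0.05, with an edgeR adjusted p of 1. Of 20 carboxypeptidases, collagens and other genes linked to Aebp1, 16 were tested, with 6 estimates higher, 10 lower, 0 called and a median of −0.06. Cpe, a carboxypeptidase that processes peptide hormones, was the highest (0.52 ± 0.38). The Wnt receptor Fzd8 was the lowest (−0.68 ± 0.30; under the unadjusted threshold of 0.05, edgeR adjusted p = 1).

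In the other classes 0 genes of these lists passed the edgeR test without a block. Of the HTRA1 and HTRA3 partners, the estimates in KCs were higher for 4 and lower for 8 (median −0.08). In HFs they were higher for 12 and lower for 3 (median 0.46), and in DCs and macrophages higher for 4 and lower for 3 (median 0.13). In TCs they were lower for all 3 tested. At an unadjusted p under 0.05, 2 partners were higher in HFs and 2 in DCs and macrophages, and 0 were lower in either. Over all genes tested the medians were 0.01 in KCs, 0.01 in HFs, −0.02 in DCs and macrophages and −0.01 in TCs. Whether the classes differ in these partners was not tested. The medians of the mitochondrial list were 0.10 in KCs, 0.08 in HFs, 0.07 in DCs and macrophages and 0.04 in TCs. Those of the carboxypeptidase list were 0.02, −0.15, −0.30 and −0.03.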

How the data were processed

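Dorsal skin of PBMCsec and vehicle mice was measured in 4 libraries each. The authors deposited UMI counts, whole numbers with no normalization, after alignment to mm10 (GRCm38). The submitters' processing notes name Cell Ranger 3.0.2 and the study's methods name v4.0. The study's limits were applied (500 to 4000 genes, a maximum of 20000 UMIs and of 5% mitochondrial UMIs), and its 3 noise genes were dropped. Seurat 5.3.0 integrated the libraries over 2000 variable features and 30 dimensions, and clustered the cells at resolution 1. A class name required 3 of its markers, each in 25% of the cells of a cluster and 2-fold above the remaining cells. A cluster was left unnamed where its 10 leading genes held more markers of another class than of its own. This naming was chosen once the clusters were known. By a marker gate, 99.25% of the FBs were also FBs. Scrublet marked 25 cells (0.407%), which is no working doublet call, so doublets were kept and the top 5% of scores were left out as an alternative.

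Counts were summed per library for classes with 10 or more cells in all libraries. The sums were compared by the quasi-likelihood test of edgeR 4.0.16 after TMM scaling and filterByExpr, two-sided, with p-values adjusted over all genes (threshold 0.05). DESeq2 1.42.0 and limma 3.58.1 were alternatives, as were other filters, gates and left-out libraries. HFs were added as a class after the data were seen, as were fits without the follicle FB clusters or the Ptx3 FB cluster. Gene positions are from GENCODE M21, and promoter windows from RefSeq (GRCm38.p6). The members and gene lists were chosen with earlier results of these data known. The text names the 4 members, the ends of each list in FBs and its genes under the unadjusted threshold there, and the 5 genes most like each member among those with 500 or more UMIs. Shares carry counting error beside the spread shown. Equal library numbers were taken to pair libraries where all 4 correlations of deviations from the group means passed 0.1. This held in TCs (0.19 to 0.41), where no member could be tested, and not in FBs (−0.01 to 0.24). Libraries with unequal numbers were not compared, so the rule cannot show that equal numbers are pairs. Scripts were tested on simulated counts.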

Additional observations from a re-analysis of the deposited data

How the results depend on the processing

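No member passed the edgeR test in any class under any alternative. Over 20 alternatives in FBs, Htra1 lay between 0.13 and 0.71, Aebp1 between 0.24 and 0.68 and Htra2 between −0.39 and −0.04, with a smallest adjusted p of 0.733, reached by Aebp1 in libraries 1 and 2 alone. Htra3 changed sign without a filter on low counts (0.0083) and between −0.39 and 0.13 as libraries were left out. In KCs Htra1 was 0.16 in libraries 3 and 4 alone and 0.35 by marker gate with a 20% mitochondrial limit, and −0.20 to 0.060 as libraries were left out (Htra2 −0.048 to 0.38). In HFs Htra1 was −0.66 in libraries 3 and 4 alone, −0.017 by marker gate and −0.52 to 0.91 as libraries were left out (Htra2 −0.16 to 0.33, Aebp1 0.17 to 1.25), and Aebp1 was 0.20 by marker gate. Htra2 in DCs and macrophages was 0.064 to 0.57 as libraries were left out. The effect in FBs against KCs was 0.28 to 0.75 for Htra1 and −0.57 to 0.32 for Htra2 as libraries were left out, and for Htra1 it reached the smallest exact p, 0.0286, without vehicle library 4. The share of FBs with an Htra2 UMI differed by −0.468 percentage points after thinning and by −0.39 to 4.15 as libraries were left out, that of Htra3 by −1.91 to 5.68. The cause of these changes was not tested.

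With the library number as a block (replicate block), the FB differences were 0.42 for Htra1, −0.18 for Htra2, −0.08 for Htra3 and 0.465 for Aebp1, and −0.00059 for Htra2 in KCs. The block called 7 genes higher in TCs and 6 in DCs and macrophages. It changed the call of no member.

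The main counts of called genes were 0. DESeq2 called 3 higher in TCs, 3 higher and 1 lower in KCs and 7 higher in DCs and macrophages, and limma-voom 1 higher in the last. No filter on low counts gave 36 higher and 4 lower in TCs, 7 and 2 in KCs, and 85 and 24 in DCs and macrophages. Libraries 1 and 2 alone gave 2 higher and 1 lower in FBs, 1 higher in TCs, 3 higher in KCs, and 7 higher and 1 lower in DCs and macrophages. Libraries 3 and 4 alone gave 4 higher in TCs, 1 higher in DCs and macrophages and 1 lower in HFs. The marker gate gave 1 higher in KCs and 1 in DCs and macrophages, and removal of the highest Scrublet scores 1 in the latter. Leaving out libraries gave 0 to 4 higher and 0 to 1 lower in KCs, 0 to 2 higher in TCs and 0 to 1 higher in DCs and macrophages.

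FBs stayed above KCs, HFs and TCs for every member. Aebp1 in FBs exceeded that in KCs by 6.03 on the log2 scale by marker gate and by 5.716 with the 20% limit, where Htra2 exceeded HFs by 0.92. Thinning to 1000 UMIs lowered the shares of cells with a UMI. The differences that follow are means over libraries. They therefore do not match the thinned class shares given earlier, which pool the cells of all libraries. After thinning, FBs exceeded HFs, TCs, and DCs and macrophages by 39.49, 46.09 and 45.95 percentage points for Htra1. FBs exceeded KCs, HFs and TCs by 2.69, 2.60 and 2.05 for Htra2. Against KCs, HFs, TCs, and DCs and macrophages the values were 50.67, 50.64, 50.55 and 50.48 for Htra3 and 53.27, 50.89, 53.12 and 53.25 for Aebp1. Pooled over all cells of the Mgp, Sfrp2, Mfap4, Pi16, Ptx3, Ednrb and Crabp1 clusters, the thinned shares were 60.2%, 57.4%, 52.3%, 45.7%, 42.3%, 31.7% and 14.2% for Htra1. They were 4.66%, 4.11%, 3.69%, 3.49%, 3.25%, 3.72% and 2.56% for Htra2, 45.4%, 51.4%, 47.8%, 58.9%, 51.8%, 19.9% and 6.64% for Htra3, and 80.9%, 67.8%, 62.2%, 46.8%, 46.5%, 30.7% and 4.71% for Aebp1. Over all its cells Aebp1 in the Ptx3 cluster was 363 to 780 CPM as libraries were left out, lowest without PBMCsec library 3. Depth was low for Htra2, with 0 to 29 UMIs per library in KCs, where Htra3 and Aebp1 were too low to be tested.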
